A study of Homo sapiens with 32 samples.

Results

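The miR-23, miR-27 and miR-24 families are made from a pair of paralogous human clusters, MIR23A-MIR27A-MIR24-2 on chromosome 19 and MIR23B-MIR27B-MIR24-1 on chromosome 9. Their members in the count table were chosen by name: mir-23a and mir-27a (chromosome 19), mir-23b and mir-27b (chromosome 9), and mir-24, a row to which a hairpin of each cluster contributes. These are 5 of the 1513 miRNA rows, each counting reads of a hairpin with both of its arms, and all 5 passed the low-count filter of every comparison.

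The libraries came from 293T (CRL-3216), a human embryonic kidney line that expresses the SV40 large T antigen. Clones 52, 55, 57 and 67 were wild type, and clones 30, 34, 42 and 43 had the genotype DGCR8 delta103-126Q, in which prime editing had deleted the reported binding site of ERH from the N-terminal part of DGCR8. Each clone was transiently transfected with control shRNA_1, control shRNA_2, shERH_1 and shERH_2, selected with puromycin, and sorted on day 5 for the fluorescent marker of the vector. This gave 32 small RNA libraries, and the counts of both control libraries and of both ERH libraries of a clone were summed, so that a genotype and arm has n = 4 clones. Whether the deletion was present on every allele, and whether the wild-type clones had been through the editing procedure, is not given in the sources used here. The table covers miRNAs, so neither ERH mRNA nor the DGCR8 edit was examined here as a check of the labels.

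A primary miRNA transcript is cut in the nucleus by the Microprocessor, the nuclease DROSHA with its RNA-binding partner DGCR8, which releases each hairpin for trimming by DICER into mature strands. ERH is a small conserved nuclear protein that binds DGCR8 and is known for its part in the processing of poor hairpins that lie beside good ones on the same transcript. miR-23, miR-27 and miR-24 are broadly expressed. miR-27 is known for repressing adipogenic and lipid genes such as PPARG, miR-23 for targeting glutaminase, and miR-24 for targeting cell-cycle genes.

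Mature sequences from RefSeq (GRCh38.p14) are shown because the families differ in their seeds while paralogues share them. Capitals mark the seed, bases 2 to 8 from the 5′ end.
hsa-miR-23a-3p: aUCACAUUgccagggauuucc
hsa-miR-23b-3p: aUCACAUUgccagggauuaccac
hsa-miR-27a-3p: uUCACAGUggcuaaguuccgc
hsa-miR-27b-3p: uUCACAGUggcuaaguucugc
hsa-miR-24-3p: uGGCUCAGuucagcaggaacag
The miR-23 strands share the seed UCACAUU and differ over their 21 aligned bases by U19A (miR-23a base, position from the 5′ end, miR-23b base), and miR-23b-3p is 2 bases longer. The miR-27 strands share the seed UCACAGU and differ only by C19U. The sequence of miR-24-3p is the same from both loci, so reads of it cannot be assigned to a cluster. How reads were divided between the paralogues that differ at 1 base is not given in the sources used here. The paralogue rows held unequal counts in all 32 libraries: the ratio of mir-23a to mir-23b counts ran from 0.771 to 1.75, and that of mir-27a to mir-27b from 0.0797 to 0.206.

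The hairpins as annotated in RefSeq are shown with both annotated mature arms in capitals. They include bases outside the arms, so they are not the exact product that the Microprocessor releases.
MIR23A: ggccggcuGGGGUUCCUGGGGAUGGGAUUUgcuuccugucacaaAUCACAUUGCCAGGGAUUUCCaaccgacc
MIR27A: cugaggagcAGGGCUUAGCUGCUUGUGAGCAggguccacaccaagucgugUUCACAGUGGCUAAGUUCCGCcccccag
MIR24-2: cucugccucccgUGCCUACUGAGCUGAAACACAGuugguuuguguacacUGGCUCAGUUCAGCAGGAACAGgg
MIR23B: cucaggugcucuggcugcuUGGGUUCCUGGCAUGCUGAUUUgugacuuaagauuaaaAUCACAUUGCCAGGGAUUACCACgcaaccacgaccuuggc
MIR27B: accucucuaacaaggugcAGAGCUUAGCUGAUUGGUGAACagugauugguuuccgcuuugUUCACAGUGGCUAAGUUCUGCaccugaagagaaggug
MIR24-1: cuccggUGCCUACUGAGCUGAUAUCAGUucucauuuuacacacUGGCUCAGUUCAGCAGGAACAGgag
In GRCh38.p14, MIR23A lies at chr19:13836587-13836659, MIR27A at chr19:13836440-13836517 and MIR24-2 at chr19:13836287-13836359, all on the minus strand. MIR23B lies at chr9:95085208-95085304, MIR27B at chr9:95085445-95085541 and MIR24-1 at chr9:95086021-95086088, all on the plus strand. The chromosome 19 cluster spans 373 bases, with 69 and 80 bases between neighbouring hairpins. The chromosome 9 cluster spans 881 bases, with 140 bases between MIR23B and MIR27B and 479 between MIR27B and MIR24-1.

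In GENCODE release 29, the chromosome 19 hairpins lie in an exon of the noncoding gene AC020916.1. The chromosome 9 hairpins lie within the protein-coding gene C9orf3 on its own strand; MIR23B and MIR27B are intronic in all 7 transcripts that span them, and MIR24-1 overlaps an exon in 1 of the 7. The hairpins of chromosome 19 had the higher GC content, 57.5% for MIR23A, 60.3% for MIR27A and 54.8% for MIR24-2, against 50.5% for MIR23B, 47.4% for MIR27B and 50% for MIR24-1. Predicted folding energies (RNAfold minimum free energy) ran from -26 kcal/mol for MIR24-2 to -49.4 kcal/mol for MIR27B, whose annotated hairpin is longer (97 against 73 bases). MIR3074 is annotated on the minus strand over MIR24-1, at chr9:95086014-95086094, and its row, mir-3074, is given below as a neighbour.

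**Figure D1:**
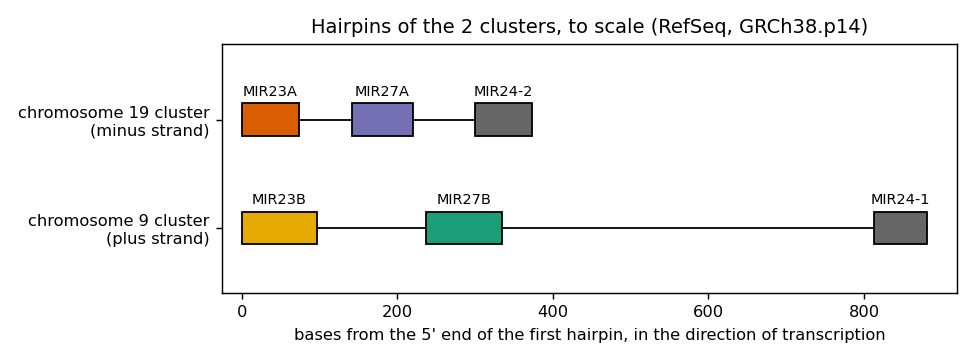
Hairpins of both clusters drawn to scale along the direction of transcription, in bases from the start of the first hairpin; boxes are hairpins and lines the sequence between them. The chromosome 19 cluster fits in 373 bases and the chromosome 9 cluster in 881, with MIR24-1 set 479 bases from MIR27B.

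Libraries held between 1318923 and 6222790 miRNA counts (median 2299476) and between 9139 and 33090 spike-in counts. The 5 rows together took between 0.605% and 0.857% of a library's miRNA counts, with a median of 0.697%. The least abundant, mir-27a, had at least 484 counts in every library, and mir-27b at least 4009. Some libraries of deletion clones were high in the blood-cell miRNAs mir-142 and mir-223. The blood-cell miRNA mir-150 was not, at 0 to 9.95 CPM (here unscaled, of all miRNA counts) over all libraries. It was at 1.46 CPM in the clone 30 library where mir-142 was highest, at 3155 CPM. Together mir-142, mir-223 and mir-150 summed to between 862 and 3552 CPM in the 4 libraries of clone 30, against 82.8 to 1130 in the other 28. The control libraries of clone 34 were high as well, with mir-142 at 694 and 1009 CPM, where wild-type control libraries had 145 to 296. Their part in the results was not tested, and values without clone 30 are given beside the results. Of the epithelial markers, the mir-200 family with mir-141 and mir-429, the 5 rows summed to between 104 and 238 CPM, with mir-429 at 0 in 15 libraries and mir-200b at 0 in 7. Of the muscle miRNAs, mir-206 was at 0 in 23 libraries. The muscle miRNAs mir-1 and mir-133a were at 0 in none, with medians of 22.7 and 9.29 CPM.

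Levels are given as CPM scaled by TMM (trimmed mean of M-values, which sets the bulk of miRNAs equal between sums). A hairpin's reads do not depend on transcript length, but ligation and amplification differ between sequences, so the order of rows is an order of reads. Over the 16 sums mir-27b was the highest, at a mean of 3722 CPM and rank 48 of the 667 rows tested, followed by mir-24 (1308 CPM, rank 79), mir-23a (897 CPM, rank 91), mir-23b (832 CPM, rank 95) and mir-27a (459 CPM, rank 118). mir-27b exceeded mir-24 in every clone of every group, and mir-24 exceeded mir-23a likewise. mir-23a and mir-23b had no common order: mir-23a was the higher in 1 of 4 wild-type and 3 of 4 deletion clones with control vectors, and in 3 of 4 wild-type and 4 of 4 deletion clones with ERH vectors. mir-27a was below mir-23a and mir-23b in all clones and both arms. Rows of 1 transcript stood at different levels: in wild-type control sums the log2 ratio of mir-23a to its neighbour mir-27a was 1.10 ± 0.32 (SD, n = 4), and that of mir-23b to its neighbour mir-27b was -2.12 ± 0.28.

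The plot of levels by clone shows the 4 groups, and the values are these. In wild-type clones 52, 55, 57 and 67, mir-27b stood at 5083, 4945, 5365 and 5436 CPM with control vectors, and at 2395, 2953, 3156 and 4180 CPM with ERH vectors. In deletion clones 30, 34, 42 and 43 it stood at 4217, 3131, 4279 and 3333 CPM with control vectors, and at 2764, 3077, 2635 and 2600 CPM with ERH vectors. No wild-type control sum was as low as any sum of the other 3 groups, and among those 3 the arms of the deletion clones did not overlap either, though all deletion ERH sums lay within the range of the wild-type ERH sums. The share of all rows whose arms separate in this way was not counted, for this row or for the rows below. Under control vectors, 10.3% of all rows tested had every deletion clone below every wild-type clone.

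For mir-23b, the other intronic chromosome 9 hairpin, the wild-type control values were 1114, 881, 1442 and 1444 CPM, and the wild-type ERH values 816, 585, 795 and 674 CPM. The deletion clones gave 660, 716, 980 and 730 CPM with control vectors and 562, 593, 727 and 589 CPM with ERH vectors. The arms of the wild-type clones did not overlap. The control sums of the genotypes did, since clone 55 was the lowest wild-type clone at 881 CPM and clone 42 the highest deletion clone at 980 CPM.

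The chromosome 19 row mir-23a gave 1081, 1145, 1245 and 1136 CPM in wild-type control sums and 934, 894, 844 and 666 CPM in wild-type ERH sums. In deletion clones it gave 870, 764, 869 and 826 CPM with control vectors and 868, 632, 813.03 and 771 CPM with ERH vectors. Wild-type control sums lay above all others, and clone 30 hardly differed between its arms.

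Its neighbour mir-27a gave 566, 686, 463 and 461 CPM in wild-type control sums and 452, 455, 420 and 405 CPM in wild-type ERH sums. In deletion clones it gave 620, 344, 461 and 464 CPM with control vectors and 451, 317, 395 and 388 CPM with ERH vectors. The wild-type control sums lay above both groups of ERH sums but overlapped the deletion control sums, which were widely spread.

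The shared row mir-24 gave 1794, 1573, 1685 and 2072 CPM in wild-type control sums and 1277, 1131, 1311 and 1211 CPM in wild-type ERH sums. In deletion clones it gave 1139, 1066, 1243 and 1192 CPM with control vectors and 982, 937, 1221 and 1089 CPM with ERH vectors. Its wild-type control sums lay above every other sum.

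**Figure D2:**
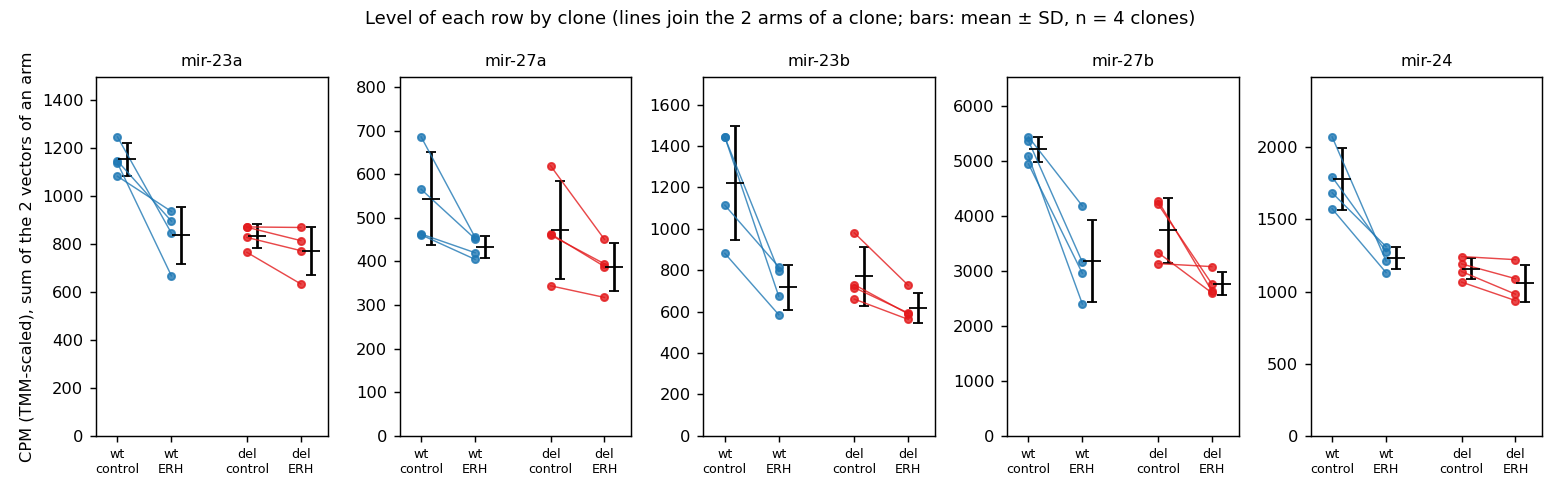
TMM-scaled CPM of each row (linear axes from 0) for wild-type (wt) and DGCR8 delta103-126Q (del) clones with control and ERH vectors; points are clones, lines join the arms of a clone, and bars are mean ± SD of 4 clones. Wild-type control values of mir-23a, mir-27b and mir-24 lie above all other groups on this scale, and each line runs downwards. The share of all rows with wild-type control sums above all other sums was not counted. Of all rows tested, 10.3% had every deletion clone below every wild-type clone under control vectors. With ERH vectors, 9.6% were lower in all 8 clones.

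The comparison of ERH vectors with control vectors over all 8 clones asked what loss of ERH did to these miRNAs. All 5 rows were lower in 8 of 8 clones and all 5 passed the test, relative to the bulk of miRNAs. This is the TMM scale: counted against the spike-ins, the fitted changes of mir-23a, mir-27a and mir-24 turned positive and no row passed. Of the 667 rows tested, 16.5% were called lower, 20.1% higher and 36.6% in either direction, and 9.6% were lower in all 8 clones. mir-27b fell by 0.58 on the log2 scale (SE 0.11, edgeR quasi-likelihood test, Benjamini-Hochberg adjusted p = 0.000396), to 66.7% of its control level, and mir-23b fell by 0.53 (SE 0.12, edgeR adjusted p = 0.00143), to 69.3%. mir-24 fell by 0.33 (edgeR adjusted p = 0.0211), mir-23a fell by 0.30 (edgeR adjusted p = 0.0431) and mir-27a fell by 0.29 (edgeR adjusted p = 0.0452). The chromosome 9 rows thus had the larger point estimates, with 10.6% of all rows below mir-27b, 12.1% below mir-23b and 25.0% below mir-23a. Across clones the change of mir-27b ran from -1.09 to -0.025 and that of mir-23a from -0.77 to -0.0037.

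The calls of the chromosome 19 rows did not hold when clones were left out. mir-23a passed in none of the 8 fits that left out a clone and mir-27a in 2 of the 8, whereas mir-23b and mir-27b passed in all 8 and mir-24 in 7, the exception being without clone 55 (edgeR adjusted p = 0.0682). Without clone 30, mir-23a gave -0.31 (edgeR adjusted p = 0.0504) and mir-27a -0.24 (edgeR adjusted p = 0.146), and mir-27b (-0.56), mir-23b (-0.55) and mir-24 (-0.33) still passed. mir-23a, mir-27a and mir-24 were also not called with a GC correction or with either other low-count filter. Requiring a mean of at least 100 counts made all 5 changes smaller. With that filter mir-23a gave -0.17, mir-27a -0.16 and mir-24 -0.21, and mir-23b (-0.40) and mir-27b (-0.46) were still called. The shares of all rows given above were not matched for abundance. The 4 vectors were also compared in numbered pairs. shERH_1 against control shRNA_1 gave changes between -0.57 and -0.35 with all 5 rows called, and shERH_2 against control shRNA_2 gave changes between -0.49 and -0.10 with only mir-27b called (edgeR adjusted p = 0.0461).

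mir-3074, read from the strand opposite MIR24-1, had a change of -0.15 and did not pass (edgeR adjusted p = 0.458). It was lower in 6 of 8 clones, at levels between 39.3 and 101 CPM. Whether the counting used strand is not given in the sources used here.

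Because the spike-ins were added to a fixed mass of total RNA, the same counts can be set against them. The median change over all 667 rows was 0.06 with TMM, 0.33 with total miRNA counts and 0.52 with spike-in scaling, so the scales differ by a shift common to all rows. With spike-in scaling mir-23a gave 0.17, mir-27a 0.17, mir-24 0.13, mir-23b -0.07 and mir-27b -0.12, none of them called. A scaling applies the same factor to all rows of a sum, so changes relative to the median row are bound to stay nearly the same. They are not separate support from each scale. Relative to the median row, mir-27b stood at -0.645 with TMM, -0.64 with spike-ins and -0.637 with total counts. There mir-27a, the nearest to the median, stood at -0.349, -0.346 and -0.341. In counts per 1000 spike-in counts, mir-27b of the wild-type clones stood at 552, 668, 439 and 474 with control vectors and at 268, 507, 540 and 831 with ERH vectors. On that scale 2 of the 4 clones were lower and 2 higher, and the ERH sums enclosed the control sums.

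**Figure D3:**
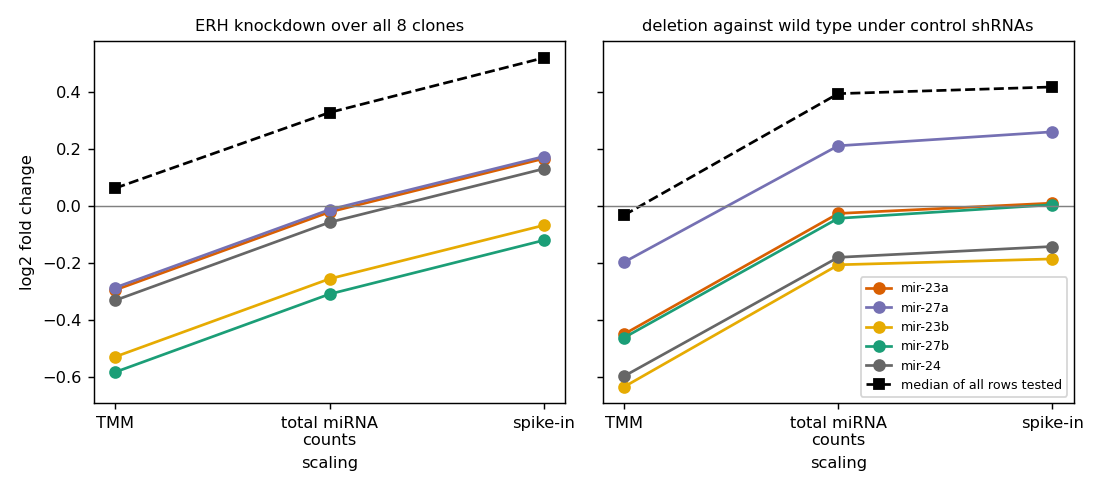
Fitted log2 fold changes of the 5 rows (coloured points) and the median of all rows tested (black squares) under TMM, total miRNA and spike-in scaling, for the knockdown over 8 clones and for the deletion under control vectors. Rows and median shift upwards together, so that mir-23a, mir-27a and mir-24 cross 0 for the knockdown with spike-ins. Their place below the median is bound to stay, because a scaling moves all rows alike.

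Within wild-type clones, where DGCR8 keeps the binding site, mir-23b fell by 0.70 (SE 0.17, edgeR adjusted p = 0.00562), mir-27b fell by 0.70 (SE 0.18, edgeR adjusted p = 0.00618) and mir-24 fell by 0.48 (SE 0.17, edgeR adjusted p = 0.0404) with ERH vectors, relative to the bulk of miRNAs. With spike-in scaling none passed and mir-24 turned to 0.14. Of 613 rows, 10.4% were called lower, 20.9% higher and 31.3% in either direction. mir-23a gave -0.43 (edgeR adjusted p = 0.0649) and mir-27a -0.26 (edgeR adjusted p = 0.280), and neither passed. All 5 rows were lower in 4 of 4 clones. The call of mir-24 was lost when any 1 of the 4 clones was left out, with edgeR adjusted p between 0.0536 and 0.135, and also with the GC correction, where the change was -0.29 (edgeR adjusted p = 0.207), and with no low-count filter (edgeR adjusted p = 0.168).

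Within deletion clones, mir-27b was the only row called: it fell by 0.45 (SE 0.12, edgeR adjusted p = 0.0412) relative to the bulk of miRNAs. Of 633 rows, 6% were called lower, 4.27% higher and 10.3% in either direction. mir-23b gave -0.34 (edgeR adjusted p = 0.0601), mir-27a -0.29 (edgeR adjusted p = 0.115), mir-24 -0.17 (edgeR adjusted p = 0.312) and mir-23a -0.15 (edgeR adjusted p = 0.376). The call of mir-27b was lost without clone 30 (-0.38, edgeR adjusted p = 0.175), clone 42 or clone 43, and without clone 34 mir-23b, mir-27a and mir-27b were called. With spike-in scaling mir-27b gave -0.16 (edgeR adjusted p = 0.709), and mir-23a and mir-24 turned positive, to 0.14 and 0.12. mir-27b was also not called with total scaling (-0.26, edgeR adjusted p = 0.146), the GC correction (edgeR adjusted p = 0.0774) or no clone block (edgeR adjusted p = 0.233).

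Under control vectors, the 4 deletion clones were set against the 4 wild-type clones to ask what loss of the binding site did while ERH was present. mir-23b fell by 0.64 (SE 0.22, edgeR adjusted p = 0.0490), to 64.4% of wild type, and mir-24 fell by 0.60 (SE 0.18, edgeR adjusted p = 0.0300), to 66.1%, relative to the bulk of miRNAs. With spike-in scaling they gave -0.19 and -0.14 and were not called. Of 536 rows, 7.09% were called lower, 18.8% higher and 25.9% in either direction. mir-27b gave -0.46 (edgeR adjusted p = 0.0557) and mir-23a -0.45 (edgeR adjusted p = 0.0758), both short of the threshold, and mir-27a gave -0.20 (edgeR adjusted p = 0.577). For mir-23a, mir-27b and mir-24 every deletion clone was below every wild-type clone in CPM, as it was for 10.3% of all rows. mir-23b, though called, had overlapping genotypes.

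Both deletion calls were near the threshold. With a clone left out, mir-23b gave -0.81 to -0.48 and mir-24 gave -0.70 to -0.48, and both were called only without clone 42 or clone 55, and not without clone 30, 34, 43, 52, 57 or 67. The summed blood markers differed between the groups compared, at 160 to 3552 CPM in deletion control libraries against 155 to 326 CPM in wild-type control libraries, and their part in the result was not tested. Without clone 30, mir-23b gave -0.51 (edgeR adjusted p = 0.143) and mir-24 -0.53 (edgeR adjusted p = 0.0743). Without clone 34 they gave -0.60 (edgeR adjusted p = 0.115) and -0.56 (edgeR adjusted p = 0.0732). With spike-in scaling, mir-27a gave 0.26, mir-23a 0.0088 and mir-27b 0.0031 in this comparison, where the median row moved from -0.03 to 0.42. All 5 were below the median row with TMM, and so also with total and spike-in scaling, which shift all rows together.

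Under ERH vectors the genotypes could not be told apart. Of 569 rows none passed edgeR's test (0% called), with 87 at an unadjusted p under 0.05 and none of the 5 members among them. The members gave between -0.23 and -0.12, and the genotypes overlapped in CPM for each of them, where 1.93% of all rows had every deletion clone below every wild-type clone. The 95% intervals were wide: that of mir-24 ran from -0.60 to 0.14, and that of mir-27b from -0.65 to 0.22.

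Whether the knockdown effect differed between genotypes was tested directly as an interaction, in which a positive value means a smaller drop in deletion clones. No row of 667 passed edgeR's test (0% called), with 127 at an unadjusted p under 0.05. mir-23b gave 0.44 (95% interval 0.04 to 0.83) and mir-24 0.39 (0.03 to 0.74), each with an edgeR adjusted p of 0.226. mir-23a gave 0.36, mir-27b 0.32 and mir-27a 0.05. With spike-in scaling mir-23a, mir-27a, mir-27b and mir-24 came out at -0.04, -0.35, -0.08 and -0.01. A difference in the knockdown effect between genotypes was therefore not shown for any of the 5. These comparisons share sums: the wild-type control sums enter the wild-type knockdown, the deletion contrast and the interaction alike.

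As a background, control shRNA_2 was compared with control shRNA_1 in the same way. No row of 571 passed edgeR's test (0% called), with 48 at an unadjusted p under 0.05. The 5 members gave between -0.13 and -0.03 with TMM. With total miRNA scaling mir-23a gave -0.09 between the control vectors and -0.022 in the knockdown.

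**Figure D4:**
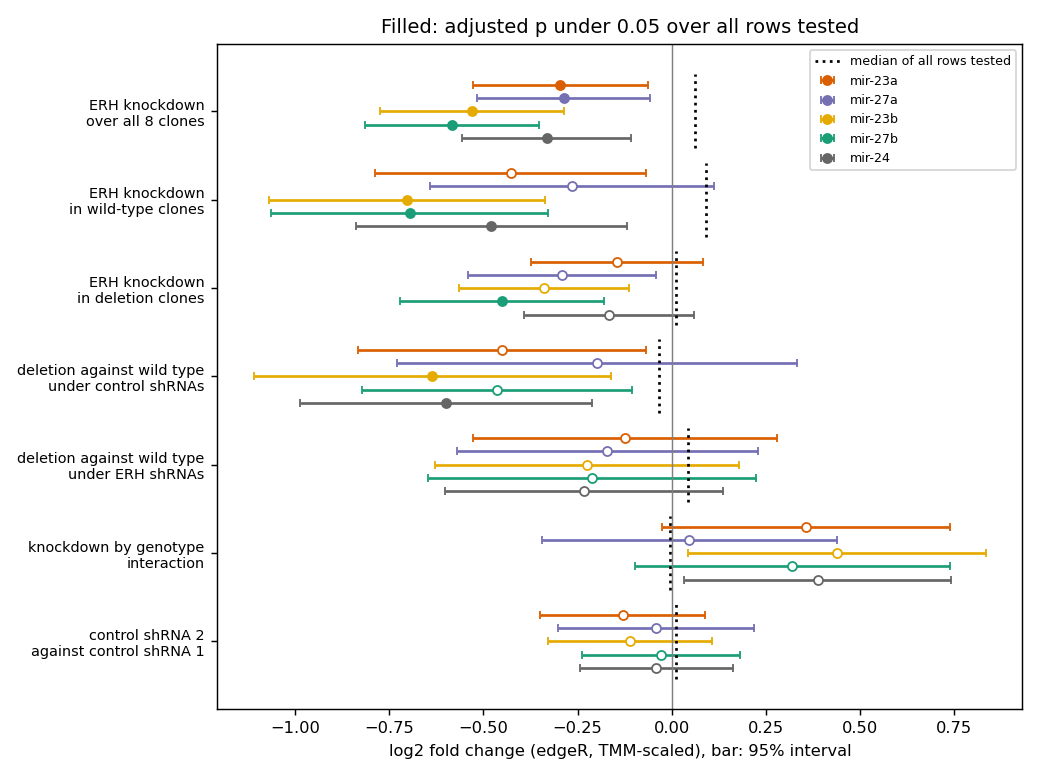
Fitted log2 fold changes (TMM scale) of the 5 rows in the 7 comparisons, with 95% intervals; filled points have an adjusted p under 0.05 over all rows tested, and dotted lines mark the median of all rows. All 5 points are filled for the knockdown over 8 clones, where spike-in scaling turns mir-23a, mir-27a and mir-24 positive, and none for the deletion under ERH vectors, the interaction or the control vectors.

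Ratios between rows of the same sum need no scaling. Hairpins of 1 transcript were compared first. The log2 ratio of mir-23a to mir-27a averaged 0.97 ± 0.31 with control vectors and 0.96 ± 0.105 with ERH vectors (SD, n = 8), a mean difference of -0.01 ± 0.35 (exact sign-flip permutation test, two-sided, p = 0.938). The log2 ratio of mir-23b to mir-27b averaged -2.20 ± 0.27 and -2.15 ± 0.34, a mean difference of 0.05 ± 0.42 (exact permutation p = 0.727). For both, 5 of 8 clones were higher with ERH vectors, and the spread of the clone differences exceeded the mean.

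The paralogues come from separate transcripts, and their ratios were higher with ERH vectors in 7 of 8 clones, without passing adjustment. The log2 ratio of mir-23a to mir-23b went from 0.03 ± 0.28 with control vectors to 0.27 ± 0.25 with ERH vectors, a mean difference of 0.23 ± 0.11 (SD, n = 8, exact permutation p = 0.0156, adjusted over 18 tests 0.141). The log2 ratio of mir-27a to mir-27b went from -3.14 ± 0.30 to -2.84 ± 0.33, a mean difference of 0.30 ± 0.29 (exact permutation p = 0.0156, adjusted 0.141). The 8 clones allow 256 sign flips and a smallest p of 0.0078.

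Against the shared mir-24 row, mir-27b differed by -0.25 ± 0.36 with ERH vectors (exact permutation p = 0.0859, adjusted 0.387), and mir-27a differed by 0.04 ± 0.28 (exact permutation p = 0.703). For the deletion under control vectors the 6 ratios differed by -0.25 to 0.40, with exact permutation p between 0.2 and 0.486 where 70 arrangements allow 0.0286 at best. The difference of the knockdown effect between genotypes was also short of adjustment for each ratio; the smallest exact permutation p was 0.0571, for mir-27a to mir-24, which changed by 0.21 ± 0.29 in wild-type and by -0.125 ± 0.138 in deletion clones (adjusted 0.343).

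**Figure D5:**
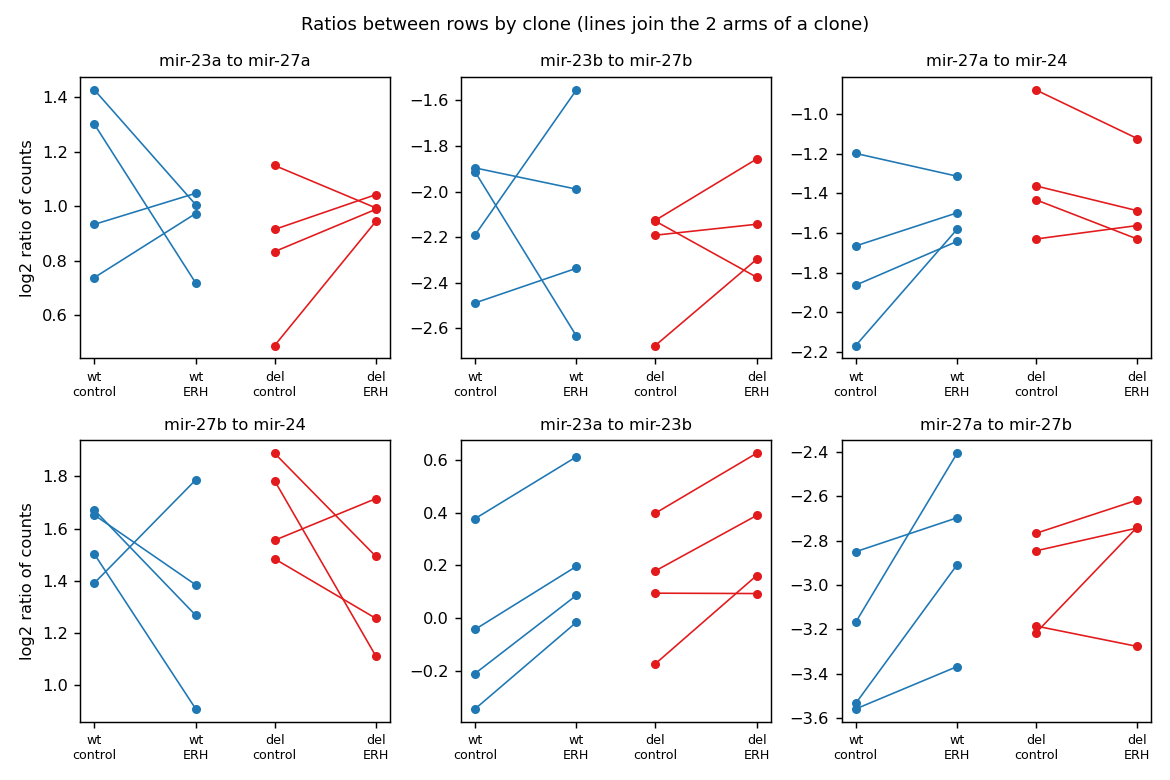
Log2 ratios of counts between rows for each clone; blue lines join the arms of wild-type and red lines those of deletion clones, and the vertical axes differ between panels. For mir-23a to mir-23b and mir-27a to mir-27b, 7 of 8 lines rise from control to ERH vectors, while lines of the same-transcript ratios run both ways.

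Profiles over the 16 sums were compared by the root mean square difference of centred log2 CPM among 366 other rows with a mean of at least 10 CPM. The sums share clones and vectors, so this is a description. The closest row to mir-23b was mir-24 (0.19), where the median row differed by 0.66. The closest to mir-24 were mir-30a (0.14), mir-107 (0.15) and mir-93 (0.16), with mir-23a at rank 4 (0.17) and mir-23b at rank 8 (0.19). mir-23a was closest to mir-181a and mir-26a (0.16 each) and mir-125b (0.17), and mir-27a to mir-146b (0.20), mir-19b (0.20) and mir-23a (0.21). mir-27b was closest to mir-16 (0.23), mir-30a (0.23) and mir-30e (0.24), with its transcript neighbour mir-23b at rank 12 (0.29). mir-27a and mir-27b differed by 0.33, and mir-23a and mir-23b by 0.27.

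Beside these stand 29 rows of other miRNA clusters, such as the mir-17 cluster and the mir-15 and mir-16 pairs. The list is partial and was chosen with earlier results of these data known. Its shares and medians therefore describe these rows and are no independent comparison group. In the knockdown over all clones 17 of the 29 were called lower and none higher with TMM (16.5% of all rows were called lower), with a median of -0.29 against 0.06 for all rows and -0.33 for the 5 members. They ranged from -1.75 for mir-15a to 0.21 for mir-503. mir-15a, mir-29c (-1.37), mir-181b (-1.33), mir-425 (-1.27), mir-19a (-1.21) and mir-15b (-1.04) changed by more than any of the 5 members. The other rows of the list did not, among them mir-16 (-0.26) and mir-181a (-0.26, not called). With spike-in scaling 6 of the 29 were called lower and 1 higher, with a median of 0.17 against 0.52 for all rows. The share of all rows called with spike-in scaling was not counted, for this comparison or for those below. For the deletion under control vectors 11 of the 29 were called lower with TMM (7.09% of all rows) and 0 with spike-in scaling, with a TMM median of -0.47 against -0.46 for the members, and none was called under ERH vectors, for the interaction or between the control vectors. Within wild-type clones 12 of the 29 were called lower with TMM (10.4% of all rows) and 1 with spike-in scaling, and within deletion clones 9 with TMM (6% of all rows) and 5 with spike-in scaling, none higher.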

How the data were processed

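Small RNA counts of 32 libraries from 8 clones of 293T cells were analysed. The labels' protocols describe adding 4 spike-in RNAs to 400 ng of RNA, of which 100 ng entered a QIAGEN QIAseq miRNA preparation. The deposited table holds raw counts per miRNA precursor, which the authors describe in its header as read counts, and SAMtools is the tool in the submitters' processing notes. The aligner, build, annotation and use of molecular identifiers are not given in the sources used here, so amplification copies may be among the counts. Pairs of libraries within a group (48) differed by at least 90.7 chi-square per degree of freedom, and none was treated as a copy.

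The clone was the replicate, and counts of both vectors of an arm were summed per clone. Differences were tested with edgeR 4.0.16 (R 4.3.3; filterByExpr, TMM, glmQLFit and glmQLFTest), with Benjamini-Hochberg adjustment over all rows tested and a threshold of 0.05. The clone was a block for the knockdown, interaction and control-vector comparisons. CPM are TMM-scaled, and log2 CPM use a prior count of 2. Pairing rests on the labels: every clone received all 4 vectors. Deviations of the arms of a clone from their group means correlated at r between 0.334 and 0.587 in the 8 clones, over 667 rows. Ratios between rows were tested by exact permutation, two-sided, with adjustment over 18 tests. The fits were tested on simulated data with known changes. False calls were 8% of calls for the knockdown over all clones, 11.1% for the deletion under control vectors and 0% to 5.26% elsewhere. Recovery of 2-fold changes was 88.9% and 23.7% in these comparisons, 37.35% for the deletion under ERH vectors and 54.4% for the interaction. For changes by the square root of 2 it was 49.5%, 1.08%, 3% and 5.33%. A lack of deletion or interaction calls thus says little about small changes.

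The members, ratios and lists were chosen with earlier results of these data known. Named rows were the 5 members, mir-3074, for each member the 3 rows of the closest profile, and those of the fixed list of other clustered hairpins that a sentence turns on. Cell type markers were the mir-200 family with mir-141 and mir-429 (epithelial), mir-142, mir-223 and mir-150 (blood), mir-126 (endothelium), mir-143 and mir-145 (stroma), mir-1, mir-133a and mir-206 (muscle), mir-122 (liver), and mir-124 and mir-9 (neurons). In single libraries mir-126 ran from 2492 to 6765 unscaled CPM (counts relative to the miRNA total), mir-9 from 2965 to 9012, mir-124 from 1.68 to 34.9, mir-122 from 72.5 to 780, mir-143 from 5.69 to 68.0, mir-145 from 0 to 4.88, mir-1 from 6.15 to 107 and mir-133a from 2.57 to 40.9. Sequences and coordinates are from RefSeq (GRCh38.p14), hosts and the hairpin GC content of 1410 of 1513 rows from GENCODE release 29, and folding energies from ViennaRNA 2.7.2. Neither build is stated to be that of the counts. Alternatives were DESeq2 1.42.0, spike-in and total scaling, a GC correction, dropping the low-count filter or requiring a mean of 100 counts, no replicate block, libraries as samples, single vectors, and each clone left out.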

Additional observations from a re-analysis of the deposited data

Results flagged for a closer look

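The log2 ratio of mir-23b to mir-27b in the control sums of the deletion clones had a lowest value, -2.675 in clone 30, that stood apart from the other 3 clones by Dixon's criterion. The highest mir-142 and mir-223 of any library were those of clone 30 with control shRNA_2, at 3155 and 395 unscaled CPM. Clone 30 with control shRNA_1 had 778 and 73.5, below clone 34 with control shRNA_2 (1009 and 119). Whether these levels bear on the ratio was not tested. Among groups of this size chance gives such a gap in about 1 in 20. That rate is for a single group. Several ratios and groups were looked through, so chance gives such a gap somewhere more often than that.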

How the results depend on the processing

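Of the 5 member rows called lower in the knockdown over all clones, none (0) was called with spike-in scaling, 1 with total miRNA scaling (mir-27b), 2 (mir-23b and mir-27b) with the GC correction, with no low-count filter and with a mean of at least 100 counts, 1 (mir-27b) without the replicate block, and 1 (mir-27b) with shERH_2 alone. Leaving out a clone gave 2 to 4. In wild-type clones, where 3 members were called, the number was 0 with spike-in scaling, total scaling or shERH_2 alone. It was 2 to 3 with a clone left out: mir-23b and mir-27b each time, mir-24 never, and mir-23a without clone 52. mir-24 was also not called there with the GC correction (-0.29, edgeR adjusted p = 0.207) or with no low-count filter (-0.39, edgeR adjusted p = 0.168). In deletion clones the 1 call became 2 with DESeq2 and with each library as its own sample. It became 0 with spike-in or total scaling, the GC correction, no replicate block, or either ERH vector alone, and leaving out a clone gave 0 to 3. For the deletion under control vectors, the 2 calls became 4 with DESeq2 and with each library as its own sample. The fit of single libraries counts both libraries of a clone as separate replicates of its genotype, so its calls overstate the replication. The 2 calls became 0 with spike-in or total scaling, the GC correction, either other low-count filter, or control shRNA_2 alone. Leaving out a clone gave 0 to 2. The deletion under ERH vectors, the interaction and the control-vector comparison had 0 calls in every alternative run. The cause of these changes was not tested, apart from the shift of the median row given with the scalings. Without the replicate block 2 rows (mir-23b and mir-27b) were called in wild-type clones, and still 0 between control vectors.

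Signs turned mostly with scaling. With spike-ins the knockdown over all clones became 0.17 for mir-23a, 0.17 for mir-27a and 0.13 for mir-24. In wild-type clones it became 0.19, 0.35 and 0.14, and in deletion clones 0.14 for mir-23a and 0.12 for mir-24. The deletion under control vectors became 0.0088 for mir-23a, 0.26 for mir-27a and 0.0031 for mir-27b. The interaction became -0.044 for mir-23a, -0.35 for mir-27a, -0.080 for mir-27b and -0.012 for mir-24, and control shRNA_2 against 1 became 0.0042 for mir-23a, 0.090 for mir-27a, 0.024 for mir-23b, 0.11 for mir-27b and 0.094 for mir-24. With total miRNA scaling mir-27a became 0.077 in the wild-type knockdown, 0.21 and 0.036 in the deletion under control and ERH vectors, and -0.18 in the interaction. mir-23a became 0.041 in the deletion-clone knockdown and 0.078 in the deletion under ERH vectors, mir-24 0.021 in the deletion-clone knockdown, and mir-27b 0.034 in the deletion under ERH vectors and 0.012 between control vectors. The GC correction took mir-27a to 0.047 in the deletion under control vectors and to -0.15 in the interaction. The interaction of mir-27a was also -0.093 with no filter, -0.11 with a mean of at least 100 counts, -0.046 with libraries as samples, -0.19 with the vectors numbered 1, and -0.16 to 0.10 with a clone left out. Between control vectors mir-27b became 0.011 without the replicate block, and mir-27a lay between -0.14 and 0.011 with a clone left out.

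The knockdown change of the ratio of mir-23a to mir-27a ranged from -0.075 to 0.073 with a clone left out, that of mir-23b to mir-27b from -0.030 to 0.16, that of mir-27a to mir-24 from -0.032 to 0.086, that of mir-27b to mir-24 from -0.34 to -0.19, that of mir-23a to mir-23b from 0.22 to 0.27, and that of mir-27a to mir-27b from 0.23 to 0.35. The mir-27a to mir-24 change became -0.034 with vectors numbered 1. With vectors numbered 2, the deletion under control vectors turned to 0.024 for mir-23a to mir-27a, 0.094 for mir-23b to mir-27b and -0.035 for mir-27b to mir-24, and the difference in knockdown between genotypes to -0.17 for mir-23b to mir-27b, 0.077 for mir-27b to mir-24 and 0.0081 for mir-23a to mir-23b. With a clone left out, that difference lay between -0.12 (without clone 67) and 0.33 for mir-23b to mir-27b, and between -0.215 and 0.14 for mir-27b to mir-24, positive without clone 42 or 67. Each row held at least 484 counts in every library, and the part of depth in the results was not tested.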
